A study of Homo sapiens with 22 samples.

Results

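H3K27ac, the acetylated form of histone H3 lysine 27, was compared in K562 cells between 72 h and 6 h of treatment with 25 nM PMA. The comparison covers 94896 of the 95436 H3K27ac regions in the deposited count table, namely those on chromosomes 1 to 22 and X, and 94325 of them passed a filter on low counts. The cells were of WT genotype throughout, and 2 H3K27ac libraries were made at each of 0 h, 6 h and 72 h of PMA. K562 is an established line from a chronic myeloid leukemia in blast crisis that can take on red cell or megakaryocyte traits, and PMA is a phorbol ester that activates protein kinase C in place of diacylglycerol. Cells were fixed with 1% formaldehyde and divided into aliquots of 500000 cells, and the assay is CNR in the titles, read here as CUT&RUN: an antibody directs a nuclease that cuts out the DNA beside the mark. The 0 h libraries are the controls before treatment, and no culture kept for 72 h without PMA was used here, so treatment and time in culture cannot be told apart. The labels do not say whether replicates were separate cultures, so the p-values measure the spread between these libraries, which may be technical. In bulk chromatin, a change in the share of cells with a mark and a change in the mark per cell cannot be told apart.

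H3K27ac is laid down by the acetyltransferases p300 and CBP at active promoters and enhancers, and it is removed by histone deacetylases, so its level follows the use of an element over hours to days. Protein kinase C signals through the MAP kinases to the AP-1 factors, dimers of Jun and Fos family proteins, and it also activates NF-kB. Red cells and megakaryocytes share a progenitor: GATA1, TAL1 and NFE2 serve both lineages, KLF1 drives the red cell genes, and ETS family factors such as FLI1 act in megakaryocytes.

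Promoters that carried AP-1 motifs, or the motifs of GATA or NF-kB factors, are shown first, because the groups of regions described below differed in how often their promoters held these letters. The sequences are the 250 bases before a RefSeq start site on GRCh38.p14, written 5′ to 3′ along the gene's strand, and capitals mark every match, on either strand, to any of 4 motifs. The motif of AP-1 was TGANTCA, and that of GATA factors was searched for as AGATAA. The letters GGNNTTTCC served as an NF-kB-like motif, and those of the ETS family were CCGGAA. No pair of these motifs was merged, so matches may overlap. SORBS2 and ADGRF4 had the largest late rise among the 48 protein-coding promoters with a region that gained acetylation in both intervals and an AP-1 motif. CXCL8, CXCL1 and NFKB2 gained acetylation by 6 h and lost it by 72 h, and EPB42 and KEL lost it in both intervals. All 7 were chosen after their values were seen.
SORBS2 (chr4:185933129-185933378, minus strand): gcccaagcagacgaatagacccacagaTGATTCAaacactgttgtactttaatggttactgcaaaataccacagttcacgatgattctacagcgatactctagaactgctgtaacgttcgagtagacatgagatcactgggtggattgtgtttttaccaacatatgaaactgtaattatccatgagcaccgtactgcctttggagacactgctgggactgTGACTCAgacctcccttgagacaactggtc
ADGRF4 (chr6:47698330-47698579, plus strand): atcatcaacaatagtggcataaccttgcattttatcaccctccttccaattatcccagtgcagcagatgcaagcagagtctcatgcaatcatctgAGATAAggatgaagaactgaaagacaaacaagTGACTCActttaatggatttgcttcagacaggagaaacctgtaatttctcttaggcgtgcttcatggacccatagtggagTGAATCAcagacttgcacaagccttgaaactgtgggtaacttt
CXCL8 (chr4:73740319-73740568, plus strand): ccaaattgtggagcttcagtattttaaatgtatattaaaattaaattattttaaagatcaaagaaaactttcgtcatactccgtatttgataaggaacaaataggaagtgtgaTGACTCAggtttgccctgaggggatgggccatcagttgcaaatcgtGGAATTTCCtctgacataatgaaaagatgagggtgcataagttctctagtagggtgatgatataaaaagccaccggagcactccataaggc
CXCL1 (chr4:73869143-73869392, plus strand): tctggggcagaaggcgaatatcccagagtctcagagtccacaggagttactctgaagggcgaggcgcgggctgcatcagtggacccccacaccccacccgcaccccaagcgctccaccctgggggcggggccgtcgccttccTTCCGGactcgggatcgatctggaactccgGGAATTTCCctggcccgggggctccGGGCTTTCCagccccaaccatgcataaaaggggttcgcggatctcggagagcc
NFKB2 (chr10:102395455-102395704, plus strand): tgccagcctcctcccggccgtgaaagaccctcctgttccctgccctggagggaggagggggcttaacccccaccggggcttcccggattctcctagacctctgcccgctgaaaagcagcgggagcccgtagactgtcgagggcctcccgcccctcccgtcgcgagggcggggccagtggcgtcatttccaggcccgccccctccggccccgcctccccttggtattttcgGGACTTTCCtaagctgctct
EPB42 (chr15:43221019-43221268, minus strand): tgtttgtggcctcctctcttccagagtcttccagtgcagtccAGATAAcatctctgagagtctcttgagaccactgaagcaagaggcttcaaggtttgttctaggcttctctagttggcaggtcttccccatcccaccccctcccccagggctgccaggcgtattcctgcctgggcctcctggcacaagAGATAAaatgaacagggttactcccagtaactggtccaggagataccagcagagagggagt
KEL (chr7:142962364-142962613, minus strand): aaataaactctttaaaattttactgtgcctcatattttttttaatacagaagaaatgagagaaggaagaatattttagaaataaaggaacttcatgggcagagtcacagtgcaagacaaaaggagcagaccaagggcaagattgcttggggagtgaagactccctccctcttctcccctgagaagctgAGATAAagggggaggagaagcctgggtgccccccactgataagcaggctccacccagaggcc
The SORBS2 and ADGRF4 windows each hold 2 AP-1 matches. In CXCL8 there is 1 AP-1 match and 1 NF-kB-like match, CXCL1 has 2 NF-kB-like matches and NFKB2 has 1. EPB42 holds 2 GATA matches and KEL 1. Only 4.11% of windows at regions that fell in both steps held AGATAA, beside 5.35% of windows with a region. These 2 promoters are thus not typical of their group. A match is a run of letters and does not show that a factor was bound there.

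H3K27ac at SORBS2, which encodes an adaptor protein of actin stress fibers and cell junctions, stood at 0.341 and 0.105 CPM at 0 h, 0.630 and 0.787 CPM at 6 h, and 31.9 and 33.5 CPM at 72 h. Only the 72 h libraries were high, and the log2 fold change (± its standard error throughout) of chr4:185931522-185934171 was 1.69 ± 0.53 in the early step (edgeR adjusted p = 0.00792) and 5.49 ± 0.22 in the late step (edgeR adjusted p = 2.59e-16). At ADGRF4, an adhesion class G protein-coupled receptor, the levels were 1.02 and 0.843 CPM at 0 h, 4.34 and 3.89 CPM at 6 h, and 46.9 and 54.8 CPM at 72 h. Each time stood above the one before without overlap, with log2 fold changes of 2.13 ± 0.26 in the early step (edgeR adjusted p = 1.1e-07) and 3.64 ± 0.15 in the late step (edgeR adjusted p = 3.49e-16). Levels are in CPM, which are the deposited counts scaled to a common library size with trimmed-mean (TMM) factors, and they are not divided by region length. Below, the early step means 6 against 0 h and the late step 72 against 6 h, and a region is called where edgeR's quasi-likelihood test gave a Benjamini-Hochberg adjusted p under 0.05.

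AP-1 motifs were most frequent in promoters whose region rose in both steps. TGANTCA was present in 165 of 669 such windows (24.7%), against 2.62% of 4156 windows at regions that fell in both steps, 8.7% of 460 that rose and then fell and 10% of 420 that fell and then rose. The share was 5.5% of the 14181 windows with any tested region and 6.54% of all 34961 windows. Base composition moved with these groups: the mean GC content was 55.2% where acetylation rose in both steps and 64.4% where it fell in both. Among windows with a GC content of 50 to 60%, the AP-1 shares were 29.6% (n = 213), 3.66% (n = 848), 15.2% (n = 79) and 14.4% (n = 97) in the same order, against 8.07% of the 3025 windows with a region. Where acetylation rose early with no late call, TGANTCA was in 14.2% of 578 windows and in 25.0% of the 112 with that GC content. AGATAA was in 10.2% of the windows that rose in both steps, 11.2% of those that fell and then rose and 4.11% of those that fell in both, against 5.35% of windows with a region and 9.18% of all windows. With a GC content of 50 to 60%, these AGATAA shares were 8.45%, 14.4% and 6.01%, against 8.4% of windows with a region, so the share of the first group was then close to that of all windows with a region. CCGGAA was in 12.3%, 17.1% and 27.5% of the same 3 groups, against 26.4% of windows with a region. The NF-kB-like motif was in 8.26% of the windows that rose and then fell and in 9.52% of those that rose early with no late call, against 6.41% of windows with a region and 5.5% of all windows. With a GC content of 50 to 60%, those 2 shares were 13.9% (n = 79) and 6.25% (n = 112), against 6.91% of windows with a region. Starts closer than the window length share bases, so windows are not independent, and no test was made.

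**Figure D1:**
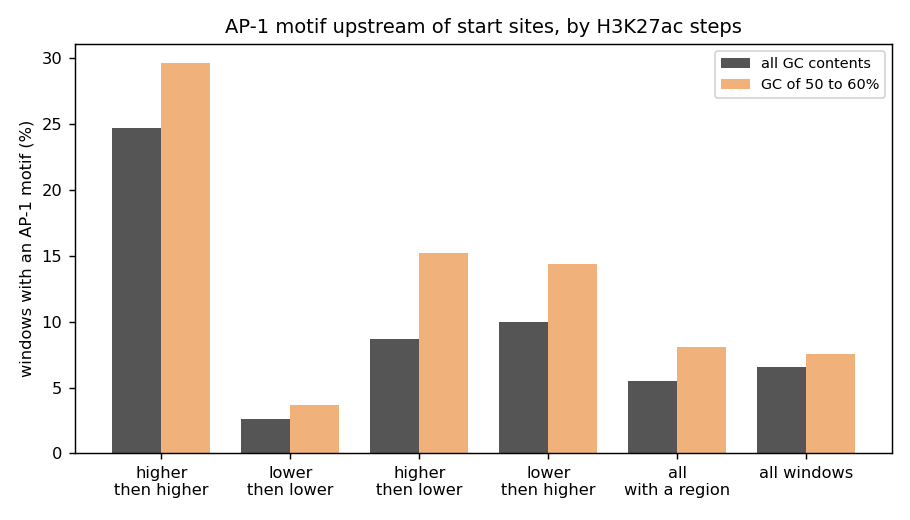
Share of 250-base promoter windows (%) that hold the AP-1 motif on either strand, by the H3K27ac class of the overlapping region, for all windows and for windows with a GC content of 50 to 60%. The bars for regions higher in both steps reach 24.7% and 29.6%, above every other group drawn. Regions that rose early with no late call are not drawn, and their shares were 14.2% and 25.0%.

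Counts in H3K27ac regions totalled 12634261 and 18775241 at 6 h and 26216577 and 27266241 at 72 h, so the 6 h libraries are the shallower side of the comparison. The deposited peak lists, called per library, hold 36947 and 39680 peaks at 6 h and 65267 and 66147 at 72 h. Counts were spread more evenly after PMA: the 10% of regions with the highest counts took 61.9% to 62.0% of counts at 0 h, 52.5% to 55.0% at 6 h and 50.9% to 52.5% at 72 h. These differences in depth and evenness move with the times compared, and their part in the results was not tested.

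The late step was as broad as the early one. Of 94865 regions tested on all contigs, 63.8% were called at 72 against 6 h, 33.1% higher and 30.8% lower, and 58.6% had been called at 6 against 0 h, 32.3% higher and 26.3% lower. On chromosomes 1 to 22 and X, 31275 regions rose and 28978 fell in the late step, so 51.9% of these calls were rises. By at least 2-fold, 23318 rose and 16911 fell. Between 0 and 72 h the share of regions called was 81.5%, with 43.4% higher and 38.1% lower. The balance of rises and falls depends on the scaling. With scaling factors taken from regions that had a peak in all 6 libraries, 64.7% of late calls were rises, and the median late log2 fold change over all regions was 0.28 in place of 0.02. With total counts it was -0.08, and DESeq2 gave 0.14. Statements on the late direction of single genes below were checked under these scalings, and exceptions are named.

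Late losses were more frequent near start sites and late gains away from them. Within 2 kb of a listed start, 17.1% of 17048 regions rose and 43.9% fell, whereas farther away 36.8% of 73307 rose and 27.6% fell. For the strongest region within 2 kb of a start of each of 10206 protein-coding genes, 11% rose and 52.2% fell, and the median log2 fold change was -0.31. By the order of the 2 steps, 4.7% of these promoters rose in both, 29.5% fell in both, 3.71% rose and then fell, and 2.83% fell and then rose. The level of a region moved with its direction too. With regions in 5 equal groups by mean CPM, the median late log2 fold change was 0.65 in the lowest group and -0.14 in the highest. Chromosome 19, which is rich in genes, had the smallest share of late rises (25.5%), and chromosome 18 the largest (38.9%).

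The 2 steps together sort the regions into 9 classes, of which 4 are called in both steps. Both steps use the 6 h libraries, so a 6 h level that is off by chance moves them in opposite ways, and the classes are given as counts with the level in each library. Acetylation rose in both steps at 15724 regions (16.7% of the 94325 tested there) and fell in both at 12098 (12.8%). It rose and then fell at 4969 (5.27%), and fell and then rose at 3694 (3.92%). A further 11857 regions rose in the late step only (12.6%) and 11911 fell in the late step only (12.6%). An early rise had no late call at 9801 regions (10.4%), an early fall had none at 9025 (9.57%), and 15246 were called in neither step (16.2%). Of the 9801 and the 9025, 879 and 515 were not called between 0 and 72 h. Membership is sensitive to scaling: under all 5 scalings or tools tried, 10567 of the 15724, 5229 of the 12098, 1865 of the 4969 and 2104 of the 3694 stayed in their class.

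Regions that rose in both steps were distal and came from a low base. Only 8.94% lay within 2 kb of a listed start, against 18.9% of all regions, and their median width was 964 bp. Per kb of region, the median level was 0.560 and 0.549 CPM in the 0 h libraries, 3.07 and 2.73 CPM at 6 h, and 9.74 and 10.1 CPM at 72 h. A deposited peak in both libraries was present at 6.24% of them at 0 h, 15.1% at 6 h and 76.7% at 72 h. Over all regions these shares were 29.4%, 24.2% and 48.3%, so they rose from 6 to 72 h in general. Regions that fell in both steps were promoter-rich, with 32.6% near a start and a median width of 1096 bp. Their median level per kb was 20.04 and 20.2 CPM at 0 h, 10.1 and 10.4 CPM at 6 h, and 4.79 and 4.57 CPM at 72 h. Peaks in both libraries covered 74.3% of them at 0 h, 44.3% at 6 h and 45.1% at 72 h.

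The reversing classes differed in how far they came back. Of the 4969 regions that rose and then fell, 2747 were not called between 0 and 72 h, 1444 still stood above their 0 h level and 778 below it. Their median level per kb was 3.56 and 3.43 CPM at 0 h, 10.2 and 9.36 CPM at 6 h, and 4.39 and 4.05 CPM at 72 h, and they were narrow, with a median width of 575 bp. Of the 3694 that fell and then rose, 1487 were not called between 0 and 72 h, 1418 remained lower and 789 ended higher. These were wide regions (median 1269 bp) at 15.4 and 16.1 CPM per kb at 0 h, 7.16 and 7.47 CPM at 6 h, and 13.9 and 14.9 CPM at 72 h. With both libraries of a time on the same side of both libraries of the next and a change of at least 2-fold in each step, 10870 regions rose in both steps, 3793 fell in both, 2263 rose and then fell, and 934 fell and then rose.

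**Figure D2:**
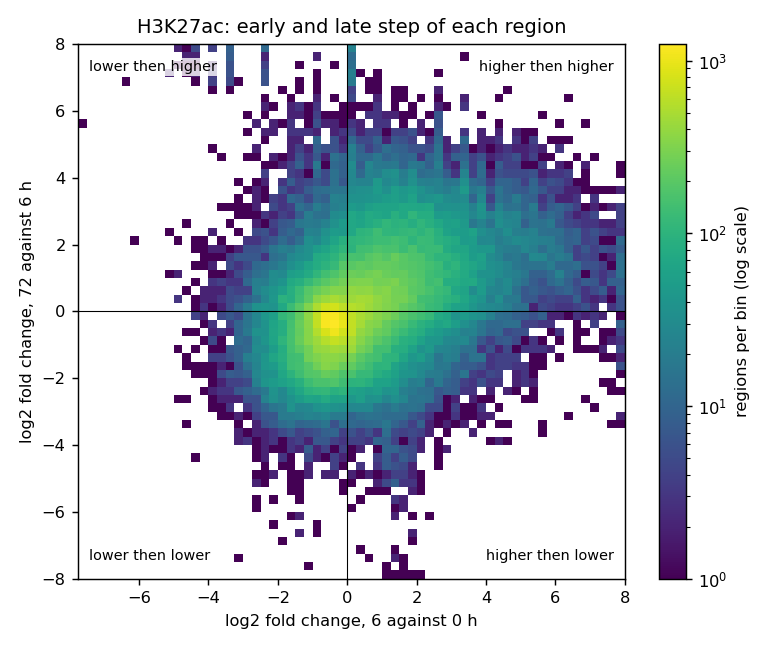
Number of H3K27ac regions (color, log scale) by log2 fold change at 6 against 0 h (x axis) and at 72 against 6 h (y axis), in bins of 0.25, with values beyond 8 in either direction drawn in the outermost bin. Regions spread through all 4 quadrants, which correspond to the 15724 regions called higher in both steps, the 12098 lower in both, and the 4969 and 3694 that reversed.

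The regions with the largest late rises had almost no counts at 6 h. In DMBT1, a scavenger receptor of epithelia, chr10:122587217-122587813 had 14.2 and 12.9 CPM at 72 h, against 2 reads in replicate 1 and none in replicate 2 at 6 h. Its ratio of 72 to 6 h was 234, with an exact binomial 95% interval of 64.6 to 1940 that covers counting error only. BACE2, a protease related to beta-secretase, reached 301 and 366 reads in chr21:41275022-41275879, with only 2 reads over both 6 h libraries, for a ratio of 210 (57.8 to 1730). In CAMTA1, a calmodulin-binding transcription activator, chr1:7252969-7253527 went from 2 reads in all to 328 and 323, a ratio of 204 (56.4 to 1690). A region of SLCO3A1, an organic anion transporter, at chr15:92051452-92052258, rose from 3 reads in all to 424 and 425, a ratio of 178 (60.6 to 864). Another, chr15:30524286-30525791, overlaps no listed gene span and gained 309 reads in either 72 h library where 6 h had 2 in all, a ratio of 194 (53.5 to 1610). All 5 were also nearly empty at 0 h and were called in the late step only. COL22A1, a collagen of tissue junctions, held another such region, on chromosome 8, with 0.170 and 0 CPM at 0 h, 0.280 and 0 CPM at 6 h, and 14.9 and 17.5 CPM at 72 h.

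In 4 of the 5 largest late falls by log2 fold change, replicate 1 lay far above replicate 2 at 0 and 6 h, so their size leans on replicate 1. Replicate 2 was also lower at 72 h than at 6 h in these 4, from a far lower level. At chr7:15189951-15190332 in AGMO, an ether lipid monooxygenase, the libraries stood at 15.3 and 0.949 CPM at 0 h, 42.8 and 4.08 CPM at 6 h, and 0.145 and 0.692 CPM at 72 h. Replicate 1 was more than 10 times replicate 2 at 0 and at 6 h, and the early log2 fold change was -0.98 without replicate 1 at 6 h. Replicate 1 lay over 4 times above replicate 2 at both 0 and 6 h in 184 regions, of which 180 were called lower in the late step, and only 2 regions had the opposite pattern. These 184 were short, with a median width of 212 bp, and the named regions in LRCH2 and near SMIM21 and ACVR2A are among them. Leaving out all regions whose replicates lay over 4 times apart at some time gave 59038 late calls in place of 60253. Among regions with close replicates, the largest falls were at chr17:53746418-53746870, 76057 bp from KIF2B, and chr4:143843429-143844421, in the noncoding gene LOC105377459 and 26443 bp from the glycophorin gene GYPE. The first had 9.54 and 8.17 CPM at 0 h, 2.52 and 1.43 CPM at 6 h, and 0 and 0.0728 CPM at 72 h. With 2 reads left at 72 h, it was 51.7-fold lower than at 6 h (exact 95% interval 13.8 to 436, counting error only). The second had 9.88 and 11.1 CPM at 0 h, 1.68 and 3.00 CPM at 6 h, and 0.145 and 0 CPM at 72 h, and here too the 72 h libraries were all but empty. NCR1, a natural cytotoxicity receptor, followed with 11.4 and 9.54 CPM at 0 h, 8.40 and 6.64 CPM at 6 h, and 0.362 and 0.219 CPM at 72 h at chr19:54898295-54899338 and a late log2 fold change of -4.65 ± 0.30 (edgeR adjusted p = 1.44e-12). Its late fall was called under all 5 scalings or tools and its early fall under 2 of them.

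The 4 named continued rises began with no read at 0 h. BACE2 held another region, chr21:41254194-41255549, where 6 h of PMA brought 4 and 14 reads and 72 h brought 1042 and 1201. Against a floor of 3 counts over the 0 h group, it rose at least 6.34-fold by 6 h and at least 497-fold by 72 h, and its late log2 fold change was 6.28 ± 0.23 (edgeR adjusted p = 1.99e-16). In KIRREL3, a cell adhesion protein of the immunoglobulin family, chr11:126815812-126818150 gained 12 and 14 reads by 6 h and reached 886 and 1040. That is a rise of at least 9.16-fold and then a late log2 fold change of 5.53 ± 0.21 (edgeR adjusted p = 3.49e-16). A region 160730 bp from ARRDC4 and another in DMBT1 followed the same course, at least 4.93-fold and at least 3.52-fold up by 6 h and at least 251-fold and 223-fold by 72 h.

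The regions named for a continued fall were strong at 0 h and held little at 72 h. At chr11:38539093-38541072, which lies 1573127 bp from the nearest protein-coding gene, LRRC4C, acetylation stood at 118 and 110.0 CPM at 0 h, 9.17 and 8.42 CPM at 6 h, and 1.122 and 0.874 CPM at 72 h. The times did not overlap, and the log2 fold changes were -3.70 ± 0.12 in the early step (edgeR adjusted p = 2.38e-17) and -3.12 ± 0.19 in the late step (edgeR adjusted p = 6.18e-13). A region 1259 bp from OAT, the mitochondrial ornithine aminotransferase, at chr10:124420182-124421559, had 34.6 and 37.1 CPM at 0 h, 4.62 and 3.79 CPM at 6 h, and 0.290 and 0.401 CPM at 72 h, and each step took away most of what was left. LINC01122 and LOC101927281, both noncoding genes, held the other regions named for this class, with late log2 fold changes of -3.22 ± 0.25 and -3.60 ± 0.38.

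The regions named for a rise and then a fall were highest at 6 h in each library. In FHL2, a LIM domain cofactor of AP-1 and other factors, chr2:105405593-105406756 had 2.16 and 2.58 CPM at 0 h, 24.2 and 26.4 CPM at 6 h, and 3.26 and 2.11 CPM at 72 h. Both 6 h libraries were far above the rest, with log2 fold changes of 3.41 ± 0.20 in the early step (edgeR adjusted p = 1.34e-13) and -3.24 ± 0.18 in the late step (edgeR adjusted p = 9.02e-14). MIR155HG is the host transcript of the microRNA miR-155, and its region chr21:25573036-25575419 had 5.17 and 4.43 CPM at 0 h, 41.9 and 43.6 CPM at 6 h, and 4.81 and 6.70 CPM at 72 h. Here too the 6 h libraries stood alone, and the log2 fold changes were 3.16 ± 0.15 in the early step (edgeR adjusted p = 7.47e-15) and -2.89 ± 0.14 in the late step (edgeR adjusted p = 1.02e-14). A region on chromosome 8, 29968 bp from YWHAZ, had log2 fold changes of 4.03 ± 0.21 in the early and -2.71 ± 0.17 in the late step, so it kept part of its gain.

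Regions that fell and then rose were lowest at 6 h in each library. In DNAH9, a dynein heavy chain, chr17:11907740-11908900 had 14.3 and 17.2 CPM at 0 h, 1.47 and 1.33 CPM at 6 h, and 12.3 and 12.2 CPM at 72 h. The drop and the recovery had log2 fold changes of -3.50 ± 0.21 in the early step (edgeR adjusted p = 2.47e-13) and 3.14 ± 0.21 in the late step (edgeR adjusted p = 2.12e-12). A wide region, chr1:207932940-207935872, 21815 bp from the stem cell antigen gene CD34, had 63.5 and 67.6 CPM at 0 h, 11.3 and 11.1 CPM at 6 h, and 57.7 and 65.0 CPM at 72 h, so the 72 h values overlapped those at 0 h. GSE1 at chr16:85377509-85378507 had 21.2 and 21.0 CPM at 0 h, 3.29 and 3.10 CPM at 6 h, and 16.6 and 18.4 CPM at 72 h, and a region 45558 bp from ATF7IP2 had 9.99 and 11.7 CPM at 0 h, 1.47 and 1.13 CPM at 6 h, and 10.9 and 11.9 CPM at 72 h. In both, the 6 h values lay below all the others.

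Losses in the late step alone included regions that 6 h of PMA had left in place. In IKZF1, the Ikaros zinc finger factor of blood cells, chr7:50317137-50317554 had 5.22 and 4.58 CPM at 0 h, 4.90 and 6.10 CPM at 6 h, and 0.362 and 0.437 CPM at 72 h. Only the 72 h libraries were low, with a late log2 fold change of -3.77 ± 0.32 (edgeR adjusted p = 1.67e-10). The adenosine receptor gene ADORA2B had 10.3 and 13.4 CPM at 0 h, 13.7 and 13.8 CPM at 6 h, and 1.27 and 0.765 CPM at 72 h at chr17:15944935-15946865, and a region 8253 bp from the syndecan gene SDC3 had 7.21 and 4.37 CPM at 0 h, 5.25 and 4.58 CPM at 6 h, and 0.326 and 0.291 CPM at 72 h. Under total counts and under factors from shared peaks, the ADORA2B region was also called higher in the early step.

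Changes were grouped along the chromosomes. Of 3007 windows of 100 kb with at least 10 tested regions, 234 had at least 90% of them called higher in the late step and 85 had at least 90% called lower. The window chr2:237400001-237500000, over COL6A3 (a collagen VI chain) and MLPH (melanophilin), had 22 of its 23 regions higher in both steps. Its summed level was 38.2 and 38.05 CPM at 0 h, 139 and 145 CPM at 6 h, and 363 and 405 CPM at 72 h. At chr7:121000001-121100000, over CPED1, 24 of 30 regions fell in both steps, and the sum went from 2192 and 2109 CPM at 0 h to 999 and 1186 CPM at 6 h and 595 and 619 CPM at 72 h. The window chr14:23100001-23200000 holds CEBPE, a granulocyte transcription factor, and SLC7A8, an amino acid transporter. In it, 16 of 23 regions fell and then rose, with sums of 279.6 and 287 CPM at 0 h, 109 and 94.7 CPM at 6 h, and 345 and 358 CPM at 72 h, above the starting level. At chr2:207400001-207500000, 10 of 14 regions rose and then fell, and the sums were 117 and 119 CPM, 160.1 and 182 CPM, and 107 and 117 CPM. A window at chr1:143200001-143300000 with 15 of 31 regions in that class had 519.7 CPM in replicate 1 and 223 CPM in replicate 2 at 6 h, so its early rise is that of replicate 1.

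The 272 genes of 22 lists were then read at their own regions, and 232 had one. For 169 it lay within 2 kb of a listed start, and for 63 genes with no listed start it was the strongest region in the gene span. Over all lists 57 rose and 90 fell in the late step. Of the regions near a start, 31 rose and 65 fell (18.3% and 38.5%), beside 11% and 52.2% over the strongest promoter region of 10206 protein-coding genes. Of the regions placed by span, 26 rose and 25 fell (41.3% and 39.7%), beside 25.6% and 41.5% over 2898 protein-coding genes without a listed start read in the same way. In the early step those backgrounds were 12.4% higher and 53.4% lower for promoters, and 23.4% higher and 45.7% lower for spans. A list in which about 1 gene in 2 fell in either step is therefore near the background. These backgrounds are of the main scaling and were not computed under the others, so ranges across scalings given below have none beside them.

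Genes of the red cell program went on losing acetylation. All 8 globin genes with a region, of 10 listed, fell in the late step (median log2 fold change -0.77), and 7 of them had also fallen in the early step. The late falls were at 2 of 2 near a start, beside 52.2% of promoters, and 6 of 6 placed by span, beside 41.5%. Under the other scalings and tools, 5 to 8 of the 8 genes were called lower and none higher. HBM, the mu-globin gene of the alpha cluster, stood at 11.2 and 11.4 CPM at 0 h, 2.73 and 3.20 CPM at 6 h, and 0.869 and 1.75 CPM at 72 h. Its 72 h values lay below both 6 h values, and its log2 fold changes were -1.92 ± 0.23 in the early step (edgeR adjusted p = 1.11e-07) and -1.19 ± 0.28 in the late step (edgeR adjusted p = 0.000817). At HBZ, the embryonic zeta-globin, the levels were 25.2 and 20.7 CPM at 0 h, 4.34 and 5.46 CPM at 6 h, and 3.33 and 2.19 CPM at 72 h. The late log2 fall of -0.84 ± 0.22 (edgeR adjusted p = 0.00163) was no longer called without replicate 2 at 6 h, where it was -0.65 (edgeR adjusted p = 0.0525). HBQ1 and HBD, the theta and delta globins, fell again with log2 fold changes of -1.104 ± 0.21 and -0.59 ± 0.13.

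Of 15 genes of the red cell membrane and surface, 11 fell and 1 rose in the late step, after all 15 had fallen in the early step, beside 53.4% of promoters. The late median was -0.56. Across scalings 8 to 11 fell late, with medians of -0.66 to -0.31, and 13 to 15 fell early. The lowest late count is near 52.2%, but that promoter share is of the main scaling, and it was not computed under the others. The list median minus that of all regions was -0.59 to -0.41 across scalings. SPTB encodes beta-spectrin of the membrane skeleton, and its promoter region had 15.7 and 16.8 CPM at 0 h, 6.58 and 5.36 CPM at 6 h, and 1.38 and 1.49 CPM at 72 h. Every 72 h value was below every 6 h value, with log2 fold changes of -1.46 ± 0.17 in the early step (edgeR adjusted p = 7.89e-08) and -2.04 ± 0.22 in the late step (edgeR adjusted p = 1.23e-08). EPB42, protein 4.2 of the membrane skeleton, whose promoter is printed above, had 44.6 and 38.5 CPM at 0 h, 6.02 and 5.96 CPM at 6 h, and 1.70 and 1.27 CPM at 72 h. It fell at each step without overlap, with log2 fold changes of -2.79 ± 0.15 in the early step (edgeR adjusted p = 2.25e-14) and -2.00 ± 0.20 in the late step (edgeR adjusted p = 5e-09). KEL, the Kell blood group glycoprotein, likewise went from 76.2 and 67.7 CPM at 0 h, 15.2 and 15.4 CPM at 6 h, and 5.36 and 6.45 CPM at 72 h, with log2 fold changes of -2.23 ± 0.12 in the early step (edgeR adjusted p = 3.3e-14) and -1.37 ± 0.14 in the late step (edgeR adjusted p = 4.21e-09). The glycophorin gene GYPB also fell late, with a log2 fold change of -1.13 ± 0.13, and EPOR, the erythropoietin receptor, and ERMAP, the Scianna blood group protein, with log2 fold changes of -0.57 ± 0.13 and -0.56 ± 0.11. DMTN, the actin bundler dematin, was the 1 gene of the list that rose late, with 65.6 and 67.3 CPM at 0 h, 22.3 and 23.8 CPM at 6 h, and 49.8 and 52.3 CPM at 72 h. All 4 PMA-treated libraries were below 0 h, but the 72 h values were more than double those at 6 h, with log2 fold changes of -1.52 ± 0.11 in the early step (edgeR adjusted p = 7.57e-12) and 1.14 ± 0.11 in the late step (edgeR adjusted p = 1.33e-09).

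Heme genes fell or had no late call. Of 14 heme and iron genes, 8 fell in the late step and none rose, after 13 had fallen early, and the late median was -0.36. By placement, 6 of 10 near a start fell, near the 52.2% of promoters, and 2 of 4 placed by span, beside 41.5%. Under other scalings up to 3 of the 14 rose. ABCB10, a mitochondrial transporter needed for heme synthesis, had 79.6 and 84.3 CPM at 0 h, 45.3 and 40.6 CPM at 6 h, and 11.3 and 10.8 CPM at 72 h. Each time lay below the one before, with log2 fold changes of -0.94 ± 0.10 in the early step (edgeR adjusted p = 3.02e-08) and -1.95 ± 0.12 in the late step (edgeR adjusted p = 2.66e-13). FECH, ferrochelatase, which inserts the iron, fell again with a log2 fold change of -0.82 ± 0.12 (edgeR adjusted p = 3.06e-06). ALAS2, the first enzyme of the red cell pathway, had 9.94 and 9.27 CPM at 0 h, 1.61 and 2.41 CPM at 6 h, and 1.66 and 2.99 CPM at 72 h, with 6 and 72 h values that overlap and no late call, at a log2 fold change of 0.18 ± 0.29 (edgeR adjusted p = 0.611). UROD, an enzyme of the middle of the pathway, had a late log2 fold change of 0.15 ± 0.11, and it was called higher late with loess offsets, with factors from shared peaks and with DESeq2.

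Erythroid transcription factors went in opposite ways. All 11 with a region had fallen early, beside 53.4% of promoters, and 8 to 11 did so across scalings. In the late step 5 fell and 4 rose, a split that ranged from 5 and 2 to 5 and 5. Of the 9 near a start, 5 fell and 2 rose, beside 52.2% and 11% of promoters. The 2 placed by span rose, beside 25.6% of such regions. KLF1, which activates the adult globin and membrane genes, had 68.9 and 68.7 CPM at 0 h, 11.8 and 13.4 CPM at 6 h, and 1.92 and 2.44 CPM at 72 h. The 72 h values were the lowest by a wide margin, with log2 fold changes of -2.44 ± 0.12 in the early step (edgeR adjusted p = 9.14e-15) and -2.54 ± 0.16 in the late step (edgeR adjusted p = 1.07e-12), and all 8 regions in its span extended by 10 kb were called lower late. LDB1, which bridges GATA1 complexes into loops, and IKZF1 fell again with log2 fold changes of -0.95 ± 0.11 and -0.89 ± 0.11, and all 17 regions around IKZF1 were called lower. NFE2, which serves both red cells and platelets, came back: 44.5 and 45.9 CPM at 0 h, 9.66 and 12.1 CPM at 6 h, and 23.2 and 23.7 CPM at 72 h. Its 72 h values were about double those at 6 h and below those at 0 h, with log2 fold changes of -2.04 ± 0.13 in the early step (edgeR adjusted p = 4.4e-13) and 1.098 ± 0.13 in the late step (edgeR adjusted p = 4.51e-08). LMO2, the partner of TAL1, overlapped its 0 h values again at 72 h, with 99.9 and 104 CPM at 0 h, 61.6 and 69.1 CPM at 6 h, and 99.0 and 111 CPM at 72 h and a late log2 fold change of 0.68 ± 0.11 (edgeR adjusted p = 6.21e-06). GATA1 and GFI1B had small late rises, with log2 fold changes of 0.36 ± 0.14 (edgeR adjusted p = 0.0257) and 0.31 ± 0.12 (edgeR adjusted p = 0.024). Neither was called with total counts or without replicate 1 at 6 h, where the values were 0.11 and 0.19. Nor was either called without replicate 1 or replicate 2 at 72 h. There the values stayed at 0.36 and 0.37 for GATA1 and at 0.33 and 0.29 for GFI1B. Around GATA1, 7 of 10 regions were called higher and none lower.

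ETS1 and FLI1 gained acetylation, and ETS2 lost it again. Of 9 megakaryocyte factor genes with a region, 4 rose and 3 fell late, counts that ranged over 4 to 5 and 2 to 4 across scalings, and 3 of the rises were at regions placed by span. ETS1 went from near nothing to a strong signal, with 0.681 and 0.843 CPM at 0 h, 5.46 and 3.00 CPM at 6 h, and 34.6 and 36.0 CPM at 72 h. Each step was a rise without overlap, with log2 fold changes of 2.41 ± 0.31 in the early step (edgeR adjusted p = 2.84e-07) and 3.11 ± 0.18 in the late step (edgeR adjusted p = 1.15e-13), and all 19 regions around it were called higher late. FLI1, the ETS factor most tied to platelet genes, had 1 weak region with 0 and 0.158 CPM at 0 h, 0.490 and 0.0984 CPM at 6 h, and 1.95 and 2.37 CPM at 72 h. It was called in the late step only, with a late log2 fold change of 2.99 ± 0.60 (edgeR adjusted p = 0.000138). ETV6 fell and then rose, with a log2 fold change of 0.40 ± 0.11 in the late step. ETS2 rose and then fell: 24.1 and 23.6 CPM at 0 h, 35.6 and 36.2 CPM at 6 h, and 24.6 and 26.0 CPM at 72 h, with log2 fold changes of 0.59 ± 0.11 in the early step (edgeR adjusted p = 5.71e-05) and -0.51 ± 0.11 in the late step (edgeR adjusted p = 0.00022).

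Of 11 platelet receptor genes with a region, 6 rose and 1 fell in the late step, with a median of 0.40, and 6 to 8 rose across scalings. Near a start 2 of 6 regions rose, beside 11% of promoters, and 4 of the 5 placed by span rose, beside 25.6% of such regions. F2R, the thrombin receptor PAR1, rose with a log2 fold change of 0.70 ± 0.11 after 0.69 ± 0.12. ITGB3, the beta3 subunit of the fibrinogen receptor, had 56.4 and 53.3 CPM at 0 h, 50.8 and 49.7 CPM at 6 h, and 106 and 109.7 CPM at 72 h. Only the 72 h libraries were high, with a late log2 fold change of 1.101 ± 0.10 (edgeR adjusted p = 1.16e-09), and 11 of 14 regions around it rose. Its partner ITGA2B (CD41) first fell and then recovered in part, with 69.9 and 71.7 CPM at 0 h, 27.01 and 34.8 CPM at 6 h, and 46.5 and 47.8 CPM at 72 h, with log2 fold changes of -1.19 ± 0.12 in the early step (edgeR adjusted p = 2.53e-09) and 0.60 ± 0.11 in the late step (edgeR adjusted p = 7.4e-05). P2RY1, an ADP receptor of platelets, went the other way and fell in both steps, with log2 fold changes of -0.81 ± 0.11 and -1.27 ± 0.12. CD9, a tetraspanin, kept its early log2 gain of 2.95 ± 0.29 (edgeR adjusted p = 2.45e-09) with 5.72 and 6.19 CPM at 72 h against 6.09 and 5.41 CPM at 6 h.

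**Figure D3:**
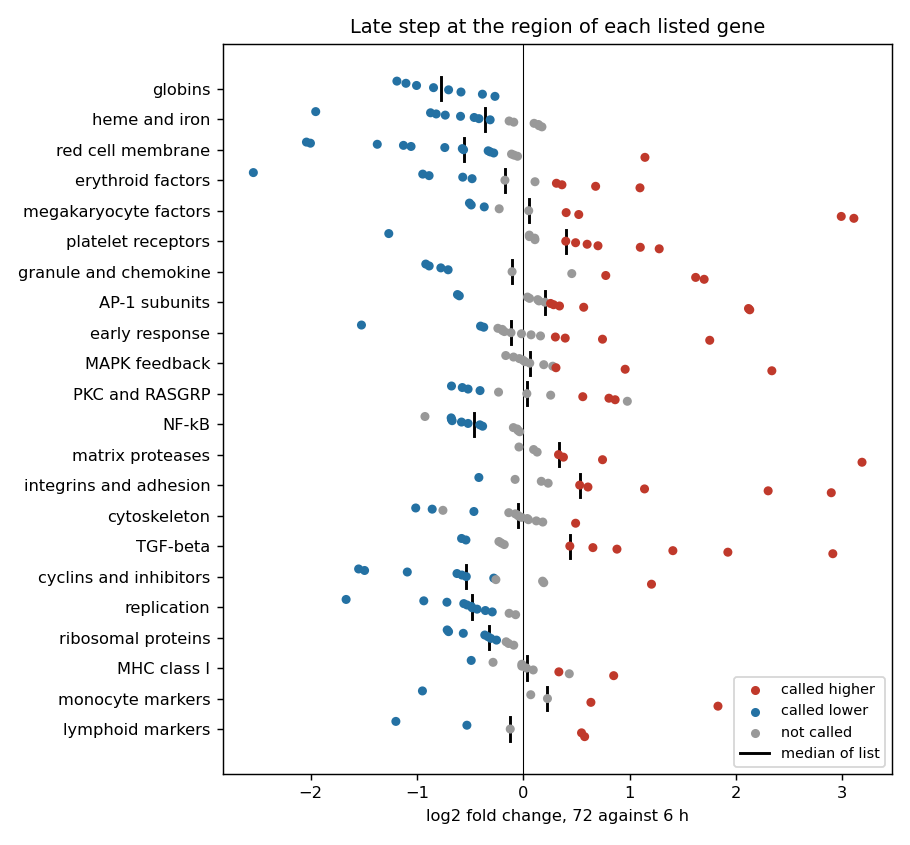
Late log2 fold change (72 against 6 h, x axis) at the region of each listed gene, by list, colored by call, with the median of each list as a black bar. The globin, red cell membrane, replication and NF-kB lists lie mostly to the left of 0 (medians -0.77, -0.56, -0.49 and -0.46), and the adhesion, TGF-beta and platelet receptor lists have medians of 0.53, 0.44 and 0.40.

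Of 9 platelet granule and chemokine genes with a region, held in 1 list, 3 rose, 4 fell and 2 had no late call, and across scalings 3 to 4 rose and 4 to 5 fell. The rises were at 3 granule genes, all placed by span, and the falls at CXCL1, CXCL2, CXCL3 and CXCL8, all near a start, a split seen after the values. VWF, von Willebrand factor, had 0.227 and 0.527 CPM at 0 h, 3.50 and 3.89 CPM at 6 h, and 12.3 and 11.8 CPM at 72 h. It rose in both steps, with log2 fold changes of 3.26 ± 0.34 in the early step (edgeR adjusted p = 1.06e-08) and 1.70 ± 0.20 in the late step (edgeR adjusted p = 4.82e-08). PF4, platelet factor 4, rose late with a log2 fold change of 0.78 ± 0.16 (edgeR adjusted p = 0.000152), and PDGFB, a platelet-derived growth factor chain, with a log2 fold change of 1.62 ± 0.28 (edgeR adjusted p = 2.16e-05). SRGN, serglycin of the granule, and PDGFA were not called late, with log2 fold changes of -0.11 ± 0.11 (edgeR adjusted p = 0.415) and 0.46 ± 0.21 (edgeR adjusted p = 0.062), although SRGN was called lower with total counts and PDGFA higher with loess offsets and with factors from shared peaks. The chemokine CXCL8 had 15.3 and 13.4 CPM at 0 h, 29.6 and 32.7 CPM at 6 h, and 17.2 and 15.8 CPM at 72 h. Its 6 h values were about double those on either side, with log2 fold changes of 1.121 ± 0.12 in the early step (edgeR adjusted p = 2.69e-08) and -0.92 ± 0.12 in the late step (edgeR adjusted p = 3.14e-07), and its promoter, printed above, was one of those with an NF-kB-like match. CXCL1 followed the same course with 3.12 and 3.06 CPM at 0 h, 9.03 and 10.9 CPM at 6 h, and 5.07 and 5.79 CPM at 72 h, with log2 fold changes of 1.70 ± 0.20 in the early step (edgeR adjusted p = 8.69e-08) and -0.89 ± 0.18 in the late step (edgeR adjusted p = 0.000148). CXCL2 and CXCL3 fell late with log2 fold changes of -0.71 ± 0.11 and -0.78 ± 0.11. Their early log2 fold changes were small, -0.39 ± 0.10 and -0.11 ± 0.11, and the sign of the early CXCL2 value turned with loess offsets (0.0212).

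Of 12 genes for NF-kB subunits, inhibitors and feedback factors, 7 fell and none rose in the late step, with a median of -0.46, after 2 had risen and 2 fallen early. The early count depended on scaling: 6 rose and none fell with total counts, with loess offsets and with factors from shared peaks. Near a start 5 of 10 fell, near the 52.2% of promoters, and 2 of 2 placed by span fell, beside 41.5%. Across scalings 5 to 8 of the 12 fell, and at most 1 rose. NFKB2, the p100 subunit gene, had 7.84 and 8.38 CPM at 0 h, 13.01 and 14.1 CPM at 6 h, and 7.49 and 9.47 CPM at 72 h. It was highest at 6 h, and its 72 h values lay on either side of those at 0 h, with log2 fold changes of 0.74 ± 0.16 in the early step (edgeR adjusted p = 0.000351) and -0.68 ± 0.15 in the late step (edgeR adjusted p = 0.000519). NFKB1, the p105 subunit gene, and RELB fell with log2 fold changes of -0.52 ± 0.12 and -0.58 ± 0.13. TNFAIP3 (A20), a deubiquitinase that limits NF-kB signaling, had 25.0 and 26.0 CPM at 0 h, 19.5 and 24.0 CPM at 6 h, and 13.8 and 13.6 CPM at 72 h and fell with a log2 fold change of -0.68 ± 0.13 (edgeR adjusted p = 4.99e-05). NFKBIZ, an atypical inhibitor, fell with a log2 fold change of -0.67 ± 0.13.

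AP-1 subunit genes rose in 6 of 13 cases and fell in 2, with a median of 0.20, but the count of rises ranged from 3 with total counts to 11 with factors from shared peaks. Near a start 3 of 10 rose, beside 11% of promoters, and all 3 placed by span did, beside 25.6% of such regions. BATF and BATF3 encode small AP-1 partners of Jun. BATF had 5.45 and 5.43 CPM at 0 h, 8.47 and 7.87 CPM at 6 h, and 34.9 and 35.8 CPM at 72 h, and BATF3 had 0.568 and 0.738 CPM at 0 h, 3.01 and 2.85 CPM at 6 h, and 12.2 and 13.5 CPM at 72 h. Both stood far higher at 72 h than at 6 h, with late log2 fold changes of 2.12 ± 0.13 (edgeR adjusted p = 4.42e-13) and 2.13 ± 0.20 (edgeR adjusted p = 8.87e-10). JUN was called in neither step, with 39.6 and 38.7 CPM at 0 h, 40.4 and 46.0 CPM at 6 h, and 49.7 and 46.2 CPM at 72 h, although 2 scalings called it higher late. MAFG, a small Maf protein, fell with log2 fold changes of -0.97 ± 0.12 and then -0.62 ± 0.12.

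Of 15 early response genes, 8 had no late call, 4 rose and 3 fell, counts that ranged over 4 to 7 and 1 to 7 across scalings. The rises were at 2 of 10 near a start, beside 11% of promoters, and 2 of 5 placed by span, beside 25.6%. The falls were at 2 of 10, beside 52.2%, and 1 of 5, beside 41.5%. NR4A1, an orphan nuclear receptor, kept rising, with 1.42 and 2.16 CPM at 0 h, 6.65 and 5.86 CPM at 6 h, and 18.2 and 23.7 CPM at 72 h, with log2 fold changes of 1.78 ± 0.24 in the early step (edgeR adjusted p = 5.34e-07) and 1.75 ± 0.17 in the late step (edgeR adjusted p = 2.77e-09). KLF2, a Krüppel-like factor, peaked at 6 h, with 0.227 and 1.26 CPM at 0 h, 7.35 and 6.99 CPM at 6 h, and 2.24 and 2.73 CPM at 72 h, with log2 fold changes of 3.22 ± 0.37 in the early step (edgeR adjusted p = 3.78e-08) and -1.52 ± 0.29 in the late step (edgeR adjusted p = 6.82e-05). EGR2, a zinc finger factor, held its early log2 gain of 2.49 ± 0.12 (edgeR adjusted p = 6.76e-15) and had 42.5 and 45.3 CPM at 72 h against 51.5 and 49.2 CPM at 6 h. That late difference was called with total counts and not otherwise. EGR3 rose further with a log2 fold change of 0.39 ± 0.10.

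Among feedback phosphatases and Sprouty genes, 3 of 11 rose late and none fell, but 8 rose with factors from shared peaks, 6 rose with loess offsets, and 2 fell with total counts. In the main fit 2 of 9 near a start rose, beside 11% of promoters, and 1 of 2 placed by span, beside 25.6%. DUSP2 and DUSP4, phosphatases of MAP kinases, had late log2 fold changes of 0.96 ± 0.12 (edgeR adjusted p = 2.83e-07) and 2.34 ± 0.23 (edgeR adjusted p = 4.17e-09). At DUSP4, the libraries stood at 0.681 and 0.422 CPM at 0 h, 2.59 and 1.62 CPM at 6 h, and 10.4 and 10.3 CPM at 72 h. DUSP5, which acts on ERK, kept its early level, with 4.26 and 4.69 CPM at 0 h, 33.3 and 34.0 CPM at 6 h, and 30.3 and 29.7 CPM at 72 h, except that it was called lower late with total counts. Of 11 genes for protein kinase C isoforms, protein kinase D and RasGRP, 3 rose and 4 fell, beside 11% and 52.2% of promoters, and across scalings 3 to 5 rose and 3 to 4 fell. RASGRP3, a diacylglycerol-responsive Ras activator, had 23.3 and 21.8 CPM at 0 h, 40.3 and 46.8 CPM at 6 h, and 72.1 and 80.5 CPM at 72 h. It rose with log2 fold changes of 0.95 ± 0.12 in the early step (edgeR adjusted p = 1.26e-07) and 0.81 ± 0.11 in the late step (edgeR adjusted p = 5.23e-07), and all 11 regions around it were called higher late. PRKCQ (PKC theta) fell late with a log2 fold change of -0.57 ± 0.11 (edgeR adjusted p = 7.67e-05) and PRKD3 with a log2 fold change of -0.68 ± 0.12 (edgeR adjusted p = 4.65e-05).

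Adhesion and matrix genes held some of the largest late gains. Of 9 adhesion genes, 5 rose and 1 fell (median 0.53, with 4 to 7 rises across scalings). Those near a start rose in 4 of 8 cases, beside 11% of promoters. The 1 placed by span rose, beside 25.6% of such regions. ITGA2, the alpha2 subunit of the collagen receptor, had 0.227 and 0.527 CPM at 0 h, 6.58 and 3.49 CPM at 6 h, and 32.4 and 40.1 CPM at 72 h. The 72 h values were far above all others, with log2 fold changes of 3.65 ± 0.38 in the early step (edgeR adjusted p = 1.05e-08) and 2.90 ± 0.19 in the late step (edgeR adjusted p = 1.63e-12), and 12 of 13 regions around it rose. ITGA3, a laminin receptor subunit, had 0.909 and 0.949 CPM at 0 h, 11.97 and 9.60 CPM at 6 h, and 48.6 and 56.8 CPM at 72 h, again a rise at each step, with log2 fold changes of 3.51 ± 0.23 in the early step (edgeR adjusted p = 1.1e-12) and 2.30 ± 0.13 in the late step (edgeR adjusted p = 1.22e-13). ITGB5 and ITGB8, subunits that pair with integrin alpha-v, rose late with log2 fold changes of 1.14 ± 0.15 and 0.61 ± 0.12. Of 7 matrix and protease genes with a region, 4 rose and none fell, and 2 to 6 rose across scalings. By placement, 2 of 4 near a start rose, beside 11% of promoters, and 2 of 3 placed by span, beside 25.6%. THBS1, thrombospondin 1 of the platelet granule and matrix, had 0 and 0.316 CPM at 0 h, 1.61 and 1.53 CPM at 6 h, and 13.8 and 14.8 CPM at 72 h. Its late log2 rise of 3.19 ± 0.25 (edgeR adjusted p = 4.47e-11) was the largest of the 232 listed genes with a region, and it had risen early with a log2 fold change of 3.21 ± 0.54 (edgeR adjusted p = 1.5e-05). PLAU, urokinase, had risen by 6 h and stayed there, with a late log2 fold change of -0.04 ± 0.11 (edgeR adjusted p = 0.755).

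TGF-beta family genes rose in 6 of 11 cases and fell in 2, with a median of 0.44, and across scalings 5 to 6 rose and 1 to 5 fell. Those near a start rose in 6 of 10 cases and fell in 1, beside 11% and 52.2% of promoters. The 1 placed by span fell. INHBA, the activin A subunit, had no counts in either 0 h library. It then reached 2.03 and 1.48 CPM at 6 h and 12.9 and 13.001 CPM at 72 h. This was at least 20.8-fold by 6 h against the floor of 3 counts, and then a late log2 fold change of 2.91 ± 0.22 (edgeR adjusted p = 5.56e-11). LTBP1, which anchors latent TGF-beta in the matrix, had 10.7 and 9.59 CPM at 0 h, 24.0 and 25.6 CPM at 6 h, and 89.2 and 99.4 CPM at 72 h. It rose with log2 fold changes of 1.29 ± 0.13 in the early step (edgeR adjusted p = 3.18e-09) and 1.92 ± 0.11 in the late step (edgeR adjusted p = 1.36e-13), and 46 of 64 regions around it were called higher in the late step and 1 lower. SKIL, a repressor of SMAD signaling, fell and then returned to its starting range, with 28.6 and 32.8 CPM at 0 h, 15.3 and 17.7 CPM at 6 h, and 31.7 and 29.3 CPM at 72 h. The receptor gene TGFBR1 fell late with a log2 fold change of -0.58 ± 0.13 (edgeR adjusted p = 0.000571).

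Of 12 DNA replication genes, 10 fell and none rose in the late step (median -0.49, with 7 to 11 falls across scalings). Those near a start fell in 8 of 10 cases, beside 52.2% of promoters, whose median was -0.31. Those placed by span fell in 2 of 2, beside 41.5%. Of 11 cyclins and brakes of the cell cycle, 7 fell and 1 rose (median -0.54). By placement, 4 of 7 near a start fell, near the 52.2% of promoters, and 3 of 4 placed by span, beside 41.5%. Across scalings 6 to 8 of the 11 fell and 1 to 3 rose. GINS2, part of the replicative helicase, had 20.05 and 19.2 CPM at 0 h, 12.04 and 11.2 CPM at 6 h, and 4.05 and 3.24 CPM at 72 h. Its log2 fold change was larger in the late step, with log2 fold changes of -0.76 ± 0.14 in the early step (edgeR adjusted p = 7.75e-05) and -1.67 ± 0.16 in the late step (edgeR adjusted p = 3.24e-09). MCM5, another helicase subunit, fell with a log2 fold change of -0.72 ± 0.11 after -0.74 ± 0.11. CCND2 and CCND1 encode D-type cyclins and went opposite ways. CCND2 had 26.1 and 26.2 CPM at 0 h, 8.12 and 7.78 CPM at 6 h, and 3.40 and 2.22 CPM at 72 h. CCND1 had 13.3 and 15.4 CPM at 0 h, 12.7 and 11.8 CPM at 6 h, and 25.5 and 30.8 CPM at 72 h. CCND2 fell in both steps, in the late one with a log2 fold change of -1.49 ± 0.19 (edgeR adjusted p = 1.89e-07), and CCND1 rose in the late step only, with a log2 fold change of 1.21 ± 0.13 (edgeR adjusted p = 2e-08). CCNE2, an E-type cyclin, and CDKN1C, the inhibitor p57, fell late with log2 fold changes of -1.09 ± 0.12 and -1.55 ± 0.32. Ribosomal protein genes, a set used for comparison, fell in 7 of 10 cases with a median of -0.32, and 3 to 9 fell across scalings. Under the main scaling that median is close to the -0.31 of promoters, which was not computed under the others. RPL5 and RPS2 had the largest of these falls, -0.72 ± 0.11 and -0.70 ± 0.11.

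Actin and tubulin cytoskeleton genes had few late calls, with 1 rise and 3 falls among 14, although 8 rose with factors from shared peaks. TPM1 and TPM4 encode tropomyosins. TPM1 fell with a log2 fold change of -0.97 ± 0.11 and again with a log2 fold change of -1.01 ± 0.11, and TPM4 rose with a log2 fold change of 0.97 ± 0.11 and again with a log2 fold change of 0.49 ± 0.10. MYH10, nonmuscle myosin IIB, fell in the late step with a log2 fold change of -0.86 ± 0.15 (edgeR adjusted p = 1.85e-05). Of 9 class I antigen presentation genes, 2 rose and 1 fell. NLRC5, their transactivator, had 0.454 and 0.316 CPM at 0 h, 14.3 and 9.10 CPM at 6 h, and 21.0 and 20.5 CPM at 72 h, a large early log2 rise of 4.89 ± 0.30 and a smaller late one of 0.85 ± 0.16 (edgeR adjusted p = 6.97e-05).

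Markers of other blood cells were checked in the same way. Only 5 of 10 monocyte or myeloid markers had a region, of which 2 rose and 1 fell late, and only 5 of 10 lymphoid markers, of which 2 rose and 2 fell. MPO, the granule enzyme myeloperoxidase, had 0.227 and 0.474 CPM at 0 h, 19.6 and 17.1 CPM at 6 h, and 27.04 and 29.7 CPM at 72 h. Most of that gain was early, and the late log2 fold change was 0.64 ± 0.13 (edgeR adjusted p = 0.000128). CSF1R, the macrophage colony stimulating factor receptor, had 3.46 and 2.79 CPM at 0 h, 2.94 and 3.00 CPM at 6 h, and 11.2 and 9.98 CPM at 72 h. It rose in the late step only, with a late log2 fold change of 1.83 ± 0.20 (edgeR adjusted p = 1.8e-08), and 7 of 9 regions around it rose. LYZ, lysozyme, fell late with a log2 fold change of -0.95 ± 0.12. CD14, ITGAM and CD163, defining monocyte and macrophage genes, had no tested region of their own. The part of other cell types in these changes was not tested.

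**Figure D4:**
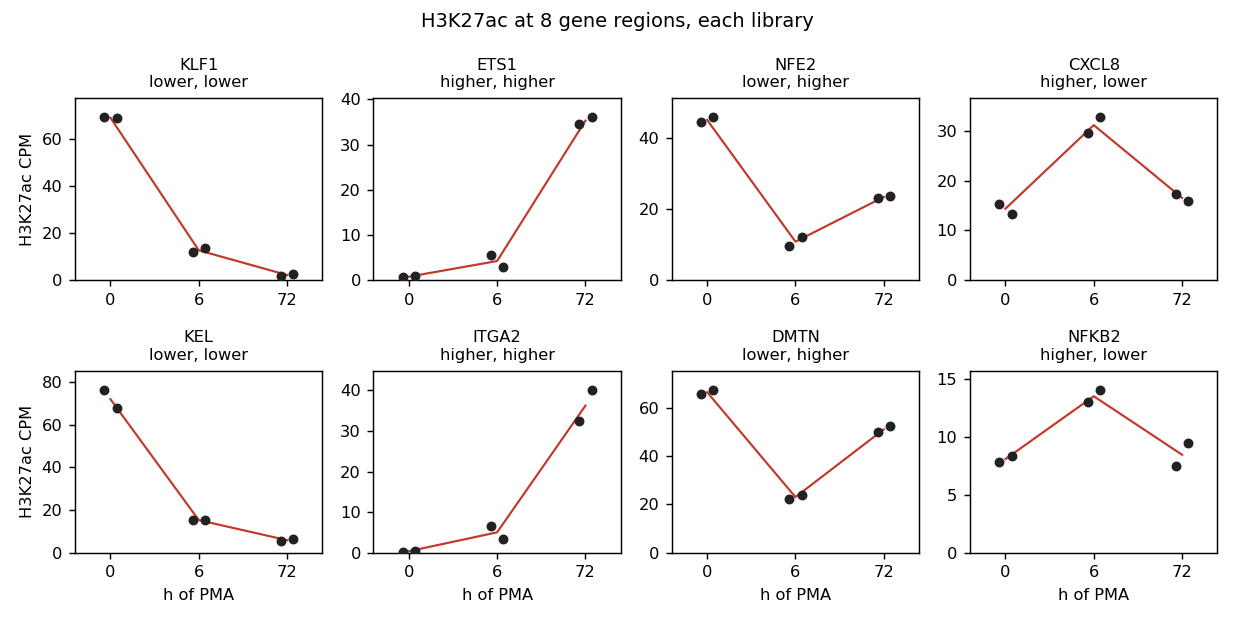
H3K27ac (CPM, y axis, from 0) in each of the 6 libraries against h of PMA for 8 gene regions, a pair for each order of the 2 steps, with lines through the means. KLF1 and KEL fall at each step, ETS1 and ITGA2 rise at each step, NFE2 and DMTN are lowest at 6 h, and CXCL8 and NFKB2 are highest at 6 h.

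Jun, a subunit of AP-1, was profiled in separate libraries from cells treated for the same times, so its counts were not used to form the H3K27ac classes. Over 132947 tested Jun regions, 12.7% rose and 13.5% fell in the late step. Those overlapping an H3K27ac region that rose late had a median Jun log2 fold change of 0.67, and those overlapping one that fell had -0.62, a difference of 1.28. Jun rose at 37.2% and fell at 2.47% of the 28134 Jun regions of the first kind, and rose at 0.13% and fell at 34.7% of the 19286 of the second. The difference lay between 1.25 and 1.33 when any single Jun library was left out. Jun libraries differed in ways that follow time: 18.1% to 27.7% of their counts were mitochondrial at 0 and 6 h and 8.58% to 9.07% at 72 h, and the part of this in the result was not tested.

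The level of Jun was followed over the 4 orders of the 2 acetylation steps. Where acetylation rose in both steps, the median Jun level went from 2.92 and 2.87 CPM at 0 h to 4.99 and 5.29 CPM at 6 h and 8.94 and 8.83 CPM at 72 h. Jun regions were present at 89.2% of these H3K27ac regions, beside 71.5% of all, and 41% rose and 2.77% fell late. Where acetylation fell in both steps, the Jun median went from 8.17 and 8.46 CPM to 4.77 and 4.93 CPM and then 3.47 and 3.23 CPM, with 0.165% rising and 29.3% falling late. Where it rose and then fell, Jun was highest at 6 h, with 7.44 and 7.60 CPM at 0 h, 9.99 and 11.7 CPM at 6 h, and 6.75 CPM in both 72 h libraries. In that class 48.9% of Jun regions fell late and 0.0779% rose, and the early step had brought rises at 30.4%, beside 13.1% over all Jun regions. Where acetylation fell and then rose, Jun went from 9.04 and 9.60 CPM to 5.22 and 5.47 CPM and then to 6.75 and 6.45 CPM. The 72 h level lay between those at 6 h and 0 h. In that class 14.8% of Jun regions rose late and 4.13% fell, beside 12.7% and 13.5% over all Jun regions, and the median late log2 fold change was 0.22.

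**Figure D5:**
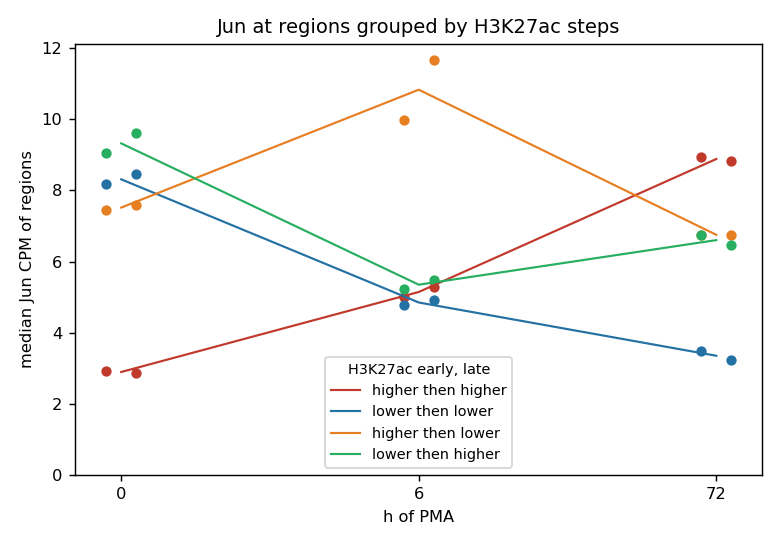
Median Jun level (CPM, y axis, from 0) in each library against h of PMA, for Jun regions that overlap H3K27ac regions of the 4 classes called in both steps, with lines through the means. Jun climbs to 8.94 and 8.83 CPM where acetylation rose in both steps, peaks at 6 h where it rose and then fell, and is lowest at 6 h where it fell and then rose.

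Jun was also read at named loci. At the FHL2 region, Jun stood at 8.75 and 10.7 CPM at 0 h, 26.1 and 30.5 CPM at 6 h, and 10.98 and 10.02 CPM at 72 h. Its 6 h values were the highest, with an early log2 fold change of 1.54 ± 0.22 (edgeR adjusted p = 2.23e-05) and a late one of -1.43 ± 0.20 (edgeR adjusted p = 2.42e-05). In MIR155HG the late Jun log2 fold change was -1.14 ± 0.20 (edgeR adjusted p = 0.00028), and the early one of 0.53 ± 0.20 (edgeR adjusted p = 0.061) was not called. Near CD34, Jun stood at 39.4 and 36.0 CPM at 0 h, 7.26 and 5.66 CPM at 6 h, and 14.1 and 13.9 CPM at 72 h. It fell with a log2 fold change of -2.56 ± 0.23 (edgeR adjusted p = 1.68e-07) and rose with a log2 fold change of 1.13 ± 0.23 (edgeR adjusted p = 0.00122), to less than 0 h. At the SORBS2 promoter, Jun had 1.75 and 1.86 CPM at 0 h, 1.59 and 1.09 CPM at 6 h, and 13.2 and 15.2 CPM at 72 h. It was high only at 72 h, with a late log2 fold change of 3.42 ± 0.34 (edgeR adjusted p = 6.82e-07), as was the acetylation there. At the KEL promoter, Jun stood at 14.001 and 8.17 CPM at 0 h, 1.82 and 1.82 CPM at 6 h, and 3.23 and 2.80 CPM at 72 h. It had fallen early, and the late log2 fold change of 0.72 ± 0.42 (edgeR adjusted p = 0.214) was not called, while acetylation fell further. At the CXCL8 promoter, Jun fell late with a log2 fold change of -0.71 ± 0.22 (edgeR adjusted p = 0.0194) without an early call.

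CTCF, an insulator protein profiled in the same way, changed at few regions in the late step: 0.449% of 58156 rose and 1.73% fell, after 2.33% had risen and 0.325% fallen in the early step. Its median late change was 0.79 at regions overlapping late acetylation gains and 0.15 at those overlapping late losses, a difference of 0.65. With only regions of a mean count of at least 50, that difference was 0.21. The 6 h CTCF libraries differ, with scaling factors of 0.783 and 0.971, and without any single CTCF library the difference lay between 0.59 and 0.77. Over all CTCF regions the median late change was -0.0009. It was -0.16 where no H3K27ac region overlapped and 0.22 where acetylation fell in both steps. Only 1.88% of CTCF regions at late acetylation gains were called higher, and 0.737% of those at late losses were called lower. Rad21 has no 6 h library among the samples analysed here and was not compared.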

How the data were processed

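Read counts per region and library were used as the authors deposited them. Per the submitters' processing notes, which give no roles or order, Trim Galore 0.4.3, BWA 0.7.17, SAMtools 1.9, deepTools 3.0.1, MACS2 and bedtools 2.26 were used, and hg19 and hg38 are named. How regions were built, and how their reads were counted, is not given in the sources used here. The coordinates were taken as GRCh38 from contig names and a last chromosome 20 region that ends at 64329816, and starts were raised by 1 to the 1-based form. The deposited peak lists give a −log10 q-value per peak, called per library. The authors' deposited table also holds log2 fold changes against 0 h, adjusted p-values and class labels, by a test that is not stated.

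All 6 H3K27ac libraries, 2 per time, were fitted with edgeR 4.0.16 in R 4.3.3 (filterByExpr, TMM, quasi-likelihood test, no covariates). The p-values were adjusted over all 94865 tested regions by the Benjamini-Hochberg method, and standard errors were derived from the F statistics. Jun and CTCF counts were fitted likewise and joined by an overlap of at least 1 bp with GenomicRanges 1.54.1. Alternatives used limma 3.58.1 (loess) and DESeq2 1.42.0, other filters, pairing and left-out libraries. Python 3.11.15 with pandas 2.3.3, numpy 2.4.6, scipy 1.17.1 and matplotlib 3.10.9 did the rest. The code of the edgeR fit was run on simulated data in which few regions changed, as many up as down. That setting differs from these data, where most regions were called, so it does not test the scaling. Total counts per library limit the precision, and exact intervals and floors cover counting error only. The regions and lists were chosen with earlier results of these data known.

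A gene's region is the tested region of highest mean CPM within 2 kb of a listed RefSeq start or, for genes with no listed start, within the gene span extended by 2 kb. Named regions have a mean CPM of at least the median (3.3), an adjusted p under 0.05 in each step used and libraries that do not overlap: the 5 largest and 5 smallest late changes, 4 regions per class called in both steps by the smaller of their 2 changes, and 3 per late-only class with an early log2 fold change under 0.5 in size. Named genes are the 2 largest and 2 smallest late changes called in each list, with genes called in both steps. The genes without a late call, and the region in NCR1 and that near GYPE, were added after their values were seen. Windows were named as the 2 with most regions of a class. A few regions and genes that met the rule are not reported here.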

Additional observations from a re-analysis of the deposited data

How the results depend on the processing

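With total counts, 8941 regions rose and then fell and 2248 fell and then rose, in place of 4969 and 3694, and with factors from shared peaks 5458 fell in both steps in place of 12098. DESeq2 gave 5552 reversals in place of 8663, of which 1995 rose and then fell. A mean count of at least 50, which leaves fewer regions to test, gave 39419 late calls (20459 higher, 18960 lower). A log2 change of at least 1 left 16911 late falls, 14775 continued and 3239 reversed regions, of which 3809 fell in both steps, 2304 rose and then fell and 935 fell and then rose. Without 1 library at a time, late calls lay between 48460 and 60360, continued regions between 21257 and 24305, and reversals between 6330 and 8238. The difference in Jun between late gains and late losses was 1.02 with the mean count of at least 50 and 1.25 to 1.33 without single libraries, and that in CTCF was 0.21 and 0.59 to 0.77. Among named items, the early change of CXCL2 was 0.0212 with loess offsets, and the early change of the AGMO region went from -0.98 to 4.57 without single libraries. That of SRGN, -0.26 as reported, was 0.0723 with total counts, 0.378 with loess offsets and 0.0888 with factors from shared peaks. The causes of these shifts were not tested. Under all 5 scalings or tools, 76 of 86 named genes and all 34 regions that met the naming rule kept their late call. Late calls were lost for GATA1, GFI1B and HBZ under the settings given beside them, and gained for UROD, TAL1, JUN, CPOX, EGR2, DUSP5, SRGN and PDGFA under others. Over all regions the deviations of same-numbered libraries had r of 0.061 (0 and 6 h), -0.022 and -0.0076, too low to take the numbers as pairs, although replicate 1 was the higher at both 0 and 6 h in the 184 regions described above. The replicate block gave 59513 late calls, 27454 continued and 8590 reversed regions, 154 listed genes in place of 147, and differences of 1.28 in Jun and 0.64 in CTCF. Leaving out regions whose replicates lay over 4 times apart, chosen after seeing the data, gave 59038 late calls, 27430 continued and 8585 reversed regions. The 6 h depth, 12634261 counts in the shallower library, limits what can be said of regions with few reads there.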

Other observations

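The authors' deposited table assigns each region to a class in time, and those labels do not follow the sign of the fold changes beside them. Of the regions that the authors' deposited table labels as down early, 71.5% of 7675 have an authors' log2 fold change above 0 at 72 against 0 h, as do 73.4% of the 1650 labelled as down late. In the authors' deposited table the shares are 71.2% of 2649 and 72.9% of 21987 for the labels of early and late rises, and 43.4% of 60935 for static regions. In the late step fitted here, 57.7% of the regions labelled down early rose and 26.3% fell, against 59.1% and 25.0% of those labelled as late rises in the authors' deposited table. The labels were therefore not used to form any class.

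Promoters whose region rose early with no late call also held AP-1 motifs more often than most. TGANTCA was in 14.2% of 578 such windows, and in 25% of the 112 with a GC content of 50 to 60%, beside 24.7% and 29.6% where acetylation rose in both steps and 10.3% of 429 windows where it rose in the late step only. Jun had early rises at 36.5% of the Jun regions in the first group and late rises at 5.41%. Where acetylation rose in the late step only, Jun had late rises at 40.6% and late falls at 1.25% of 9530 regions.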
